A study of Rattus norvegicus with 12 samples.

Results

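Rat islet cells express a broad set of voltage-gated calcium channel, voltage-gated sodium channel and transient receptor potential (TRP) channel genes, and the data were examined for their response to silencing of mt-tRF-LeuTAA, a piece of a leucine tRNA that the mitochondrial genome encodes. The genes were taken by symbol from the table of detected genes: those starting with Cacna, Cacnb or Cacng, with Scn and a digit, or with Trpa, Trpc, Trpm or Trpv and a digit, without Scn4a. These were 42 of 13733 genes: 15 subunits of calcium channels, 9 of sodium channels, 17 TRP channels and Trpc4ap, an adaptor protein that carries a TRP symbol and is no channel itself. The cells were dispersed pancreatic islets of 3-month-old male Wistar rats, transfected with 30 pmol of single-stranded antisense oligonucleotide to the fragment (anti-mt-tRF-LeuTAA) or of a scrambled control (anti-control), and RNA was taken after 72 h. Each group held 6 libraries, numbered 1 to 6, and each number is the islets of a single rat, so the libraries of the groups are paired. No genotype or diet separates the groups. The cells were a mixture of all islet cell types, and in such bulk RNA fewer cells of a type and less RNA per cell cannot be told apart.

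In a beta cell, glucose metabolism closes potassium channels, the membrane depolarises, and voltage-gated sodium and calcium channels open. The calcium that enters triggers the release of insulin. A calcium channel consists of a pore (Cacna1 genes) with alpha2delta (Cacna2d), beta (Cacnb) and, in some tissues, gamma (Cacng) subunits that set its surface level and gating, and a sodium channel of a pore (Scn genes ending in a) with beta subunits (ending in b). TRP channels are cation channels that open to temperature, lipids, calcium, osmotic stress or plant compounds, and several of them add a depolarising background current in islet cells.

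Levels are given as log2 CPM, that is, the logarithm of reads scaled to library size (CPM) with a small prior count added, and differences as anti-mt-tRF-LeuTAA minus anti-control. Libraries held 16.4 to 23.4 M reads over the listed genes. Insulin, glucagon and somatostatin genes were detected in every library. The summed level of 6 beta cell markers was 82400 to 163000 CPM in anti-control and 88700 to 154000 CPM in anti-mt-tRF-LeuTAA, mostly Ins1, Ins2 and Iapp, and 0 of the 6 passed without the block. That of 4 alpha cell markers spread far more, from 2050 to 43100 and from 3650 to 43100 CPM, and it was low in anti-control libraries 1 and 2 (2100 and 2050 CPM) and in anti-mt-tRF-LeuTAA library 2 (3650 CPM). More genes were at 0 reads in anti-control (116 to 196 per library) than in anti-mt-tRF-LeuTAA libraries (4 to 18). Of the 8 skeletal muscle markers, Ckm, Ttn, Myh1 and Myog were not in the table, and the sum of the other 4 was 3.46 to 9.55 CPM in anti-control and 63.0 to 249 CPM after silencing, mostly Neb. Of the 7 acinar markers, Prss1, Cpb1 and Pnlip were not in the table and 1 of the other 4 passed, Cel, which was higher after silencing (3.23, adjusted p = 1.19e-05). Of 5 macrophage markers 1 passed without the block, Cd68 (2.02 higher, adjusted p = 0.00735). The rest of this list had negative differences: Aif1 -0.95, Csf1r -0.21, Cd74 -0.16 and Ptprc -0.05. With the block, Aif1 passed as lower (limma adjusted p = 0.0346). Their part in the results below was not tested.

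Without regard to pairing, 5 of the 42 genes were higher after silencing (11.9%) and 0 were lower, at adjusted p-values of at most 0.05 from limma over all 13733 genes. Over all genes, 10.9% were higher and 4.65% lower, so the share of higher channel genes was near the background. The 5 were the cold receptor gene Trpm8, the magnesium channel gene Trpm6, the capsaicin receptor gene Trpv1, and the calcium channel genes Cacna2d4 and Cacna1c. With the replicate number as a block, that is, comparing libraries of the same rat, 8 genes were higher and 6 lower (19.0% and 14.3%, against 17.6% and 17.7% of all genes). The block added Cacna1b, Trpc2 and Trpm7 to the higher genes, and Cacna1h, Scn3b, Scn7a, Scn9a, Trpc5 and Trpm5 to a lower group. Counted without the block at an unadjusted limma threshold of 0.05, 7 genes were higher and 1 lower. The share of all genes at that threshold was not counted, so these counts have no background. With voom weights limma also gave 0 lower genes after adjustment. The median difference over the 42 genes was 0.01 on the log2 scale, with 21 positive and 21 negative values, beside -0.04 over all genes.

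**Figure D1:**
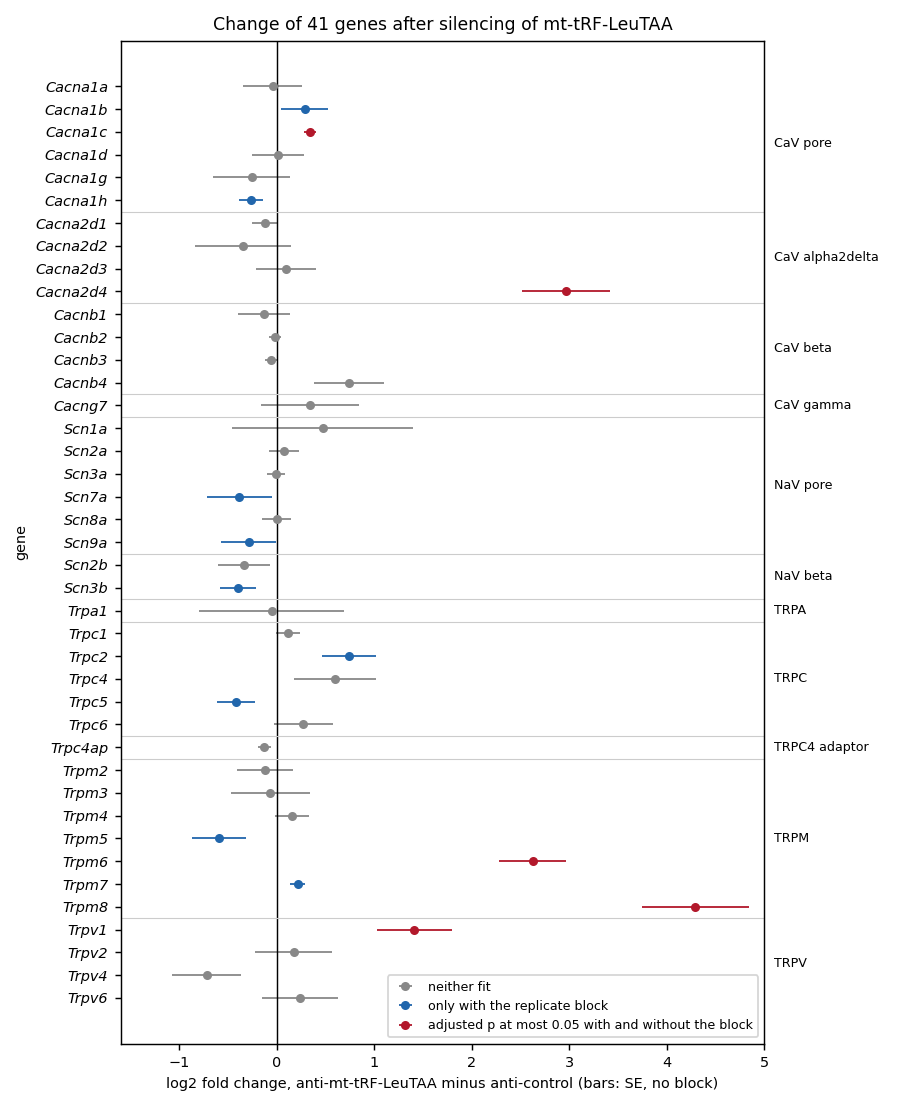
Log2 fold change of 41 of the 42 genes (x axis, anti-mt-tRF-LeuTAA minus anti-control; points, estimate from 6 against 6 libraries; bars, SE without the block), grouped by family. Trpm8 (4.29), Cacna2d4 (2.97), Trpm6 (2.62) and Trpv1 (1.41) lie far to the right, Cacna1c (0.34) lies near 0 with a short bar, and the genes passing only with the block lie between -0.59 and 0.74.

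The groups of libraries did not overlap for 4 of the 42 genes, all higher after silencing (Trpm8, Trpm6, Cacna2d4 and Cacna1c), where 7.92% of all genes were higher and 2.27% lower without overlap. Within rats, Cacna1c, Cacna2d4, Trpm6, Trpm7 and Trpm8 were higher in 6 of 6 pairs, and Cacna1h, Scn2b, Scn9a, Trpc4ap and Trpc5 were lower in 6 of 6. Over all genes, 17.3% were higher and 16.6% lower in every pair, so neither count of 5 (11.9%) exceeded the background.

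Among the 7 TRPM genes, Trpm8 changed most. Trpm8 encodes the channel opened by cold and menthol in sensory neurons (chromosome 9, 95398237 to 95482890, plus strand, Rnor_6.0). It had 70, 50, 7, 7, 25 and 45 reads in anti-control libraries 1 to 6, and 518, 700, 240, 477, 539 and 617 reads in the anti-mt-tRF-LeuTAA libraries of the same rats. The lowest library after silencing thus held more reads than the highest control. On the log2 scale the controls averaged 0.38 ± 1.37 and the silenced libraries 4.67 ± 0.54 (SD, n = 6 per group), which is 4.29 higher (SE 0.55, limma adjusted p = 9.98e-05). Controls from rats 3 and 4, with the fewest reads, were also the lowest for Mroh2a, the nearest listed gene that ends upstream of Trpm8 on its strand, 50.9 kb away. Mroh2a had 717, 534, 103, 101, 182 and 262 reads in the controls and 760, 1102, 376, 597, 613 and 575 after silencing. It differed by 1.43 on the log2 scale (SE 0.47), which passed only with the block (adjusted p = 0.0606 without and 0.00234 with it). AC120922.1, which ends 51.8 kb upstream on the same strand, rose by 1.73 (adjusted p = 0.00995). Spp2, which starts 18.9 kb beyond the end of Trpm8, differed by 0.42 (adjusted p = 0.581). Whether reads of Trpm8 come from its own start was not tested.

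The sequences around the annotated starts of Trpm8, Trpv1 and Cacna1c are shown because these are the higher genes with a single RefSeq promoter entry. Of the 42 genes, 31 matched an entry by symbol. Trpm6 matched several and Cacna2d4 none. Coordinates here are those of RefSeq on GRCr8, while the reads were counted on Rnor_6.0. Capitals mark matches, on either strand, to TATAAA (the TATA box), GGGCGG (the GC box) or CCAAT, which do not overlap each other in these sequences.
Trpm8 (chr9:96351433-96351732, plus strand): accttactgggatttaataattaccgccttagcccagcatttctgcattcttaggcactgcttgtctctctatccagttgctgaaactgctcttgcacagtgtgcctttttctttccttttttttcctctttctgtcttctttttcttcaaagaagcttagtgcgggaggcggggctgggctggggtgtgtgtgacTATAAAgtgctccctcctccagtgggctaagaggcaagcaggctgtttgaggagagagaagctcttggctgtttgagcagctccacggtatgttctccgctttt
Trpv1 (chr10:58349686-58349985, plus strand): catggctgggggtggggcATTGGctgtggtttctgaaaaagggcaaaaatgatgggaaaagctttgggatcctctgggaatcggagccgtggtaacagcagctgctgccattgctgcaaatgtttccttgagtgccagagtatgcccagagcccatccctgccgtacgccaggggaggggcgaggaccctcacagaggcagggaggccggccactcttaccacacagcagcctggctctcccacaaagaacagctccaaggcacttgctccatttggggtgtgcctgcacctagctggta
Cacna1c (chr4:154051699-154051998, minus strand): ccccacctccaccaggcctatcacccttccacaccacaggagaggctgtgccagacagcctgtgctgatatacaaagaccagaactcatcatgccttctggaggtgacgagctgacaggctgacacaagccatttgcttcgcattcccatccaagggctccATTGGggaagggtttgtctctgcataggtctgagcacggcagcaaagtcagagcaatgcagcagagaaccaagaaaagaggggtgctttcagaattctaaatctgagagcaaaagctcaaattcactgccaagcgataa
Trpm8 holds TATAAA at bases -54 to -49 from the annotated start, as 14.2% of 33469 rat promoters of this length hold it somewhere. Trpv1 and Cacna1c hold CCAAT on the opposite strand, at bases -232 to -228 and -89 to -85, a match found in 37.5% of promoters. GGGCGG, found in 33.1%, is in none of the 3. These matches are descriptions of letters, and no promoter was measured here.

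Trpm6 encodes a channel fused to a kinase that takes up magnesium in gut and kidney (chromosome 1, 234479289 to 234596971, minus strand). Its controls held 17, 4, 8, 12, 5 and 11 reads, and the silenced libraries 40, 56, 43, 47, 85 and 87. No library of a group reached into the range of the other. The level rose from -1.04 ± 0.72 to 1.58 ± 0.47 log2 CPM (SD over 6 rats), by 2.62 (SE 0.35, adjusted p = 0.000140), or 6.16-fold. With quantile normalization the difference was 1.96 (3.88-fold), and the call held (adjusted p = 0.00121). The nearest genes upstream on its strand, LOC499331 at 68.9 kb and Carnmt1 at 80.7 kb, differed by 0.11 and 0.05 (adjusted p = 0.686 and 0.862).

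Trpm7, the ubiquitous relative of Trpm6 and also a channel with a kinase, had 2502 to 3450 reads in anti-control and 2848 to 4106 after silencing. Its log2 level was 7.16 to 7.51 (median 7.28) and 7.29 to 7.65 (median 7.54), so the groups overlapped, but it was higher in every pair, by 0.08 to 0.37. The mean difference was 0.21 (SE 0.08), which missed the threshold without the block (adjusted p = 0.0964) and passed with it (0.0150). That call was kept in 5 of 6 fits without a rat.

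Trpm5, a calcium-activated sodium channel known from taste cells and beta cells, moved the other way. Its log2 level was 5.41, 6.00, 6.61, 6.76, 5.94 and 6.08 in anti-control libraries 1 to 6, and 5.50, 4.75, 6.35, 5.95, 5.27 and 5.43 after silencing. It was lower in rats 2 to 6 and 0.09 higher in rat 1. The difference was -0.59 (SE 0.27), with an adjusted p of 0.177 without the block and 0.0114 with it, and the blocked call was kept in 6 of 6 fits without a rat. Trpm4, its close relative, differed by 0.16, the oxidant-sensing Trpm2 by -0.12 and Trpm3, which pregnenolone sulphate opens, by -0.07, with blocked adjusted p of 0.438, 0.748 and 0.676. The summed level of the 7 TRPM genes was 265 ± 30.8 CPM in anti-control and 294 ± 17.6 CPM after silencing (SD, n = 6).

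**Figure D2:**
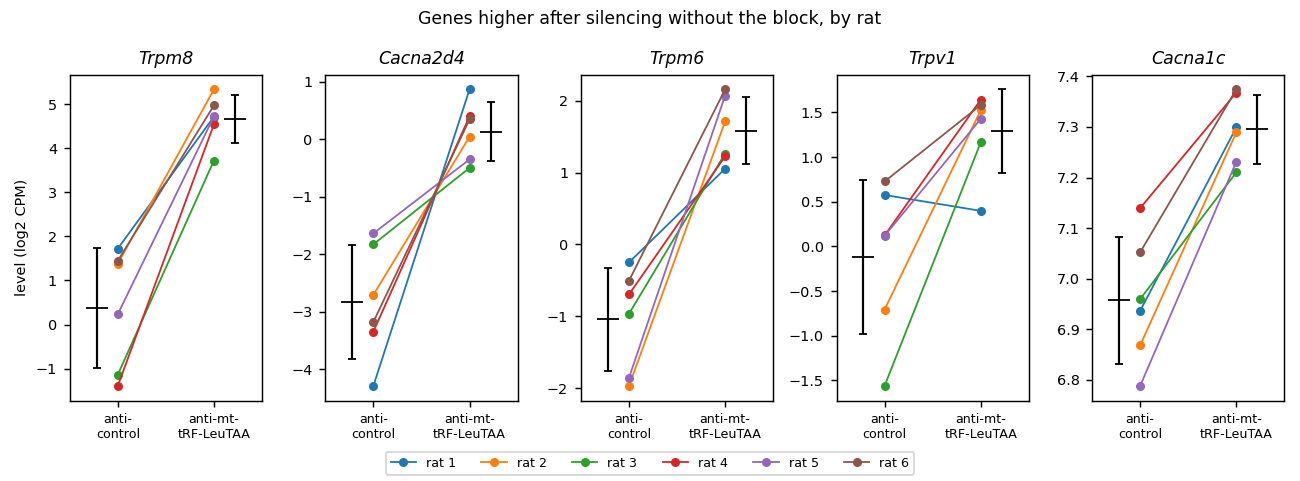
Levels of the 5 genes that passed without the block (y axis, log2 CPM, a separate scale for each gene; lines join libraries of the same rat; black bars, mean and SD of 6 libraries). Every line rises except that of rat 1 for Trpv1.

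Of 4 TRPV genes, Trpv1 was higher. It encodes the heat and capsaicin receptor of sensory nerves (chromosome 10, 59799123 to 59824679, plus strand). The controls held 31, 11, 5, 22, 23 and 27 reads, and the silenced libraries 25, 49, 40, 63, 54 and 58. Rat 1 went from 31 to 25 reads, and its silenced library lay within the range of the controls. The level rose from -0.12 ± 0.86 to 1.29 ± 0.47 log2 CPM (SD, n = 6), by 1.41 (SE 0.39, adjusted p = 0.0258), and it was higher in 5 of 6 pairs. This call is less firm than the others: it was lost with quantile normalization (difference 0.87, adjusted p = 0.153), and without anti-control library 2 (0.0539) or anti-mt-tRF-LeuTAA library 2 (0.0540), 4 (0.0596), 5 (0.0504) or 6 (0.0540). It held in every fit with the block that left out a rat. Shpk, an expressed gene of the same strand, ends 9.4 kb upstream and differed by -0.06 (adjusted p = 0.783).

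The other TRPV genes did not pass in either fit. Trpv2, the TRPV gene with the most reads (not corrected for transcript length), spanned 1.83 to 3.92 log2 CPM (median 2.36) in anti-control and 1.54 to 3.66 (median 2.86) after silencing. The osmotic sensor Trpv4 differed by -0.72 (SE 0.35, adjusted p = 0.207, blocked 0.0687) and was lower in 5 of 6 pairs, with 18 to 39 reads in the controls and 6 to 32 after silencing. With quantile normalization it passed as lower (-1.56, adjusted p = 0.0252). Trpv6, an epithelial calcium channel, had 6 to 28 reads per library and differed by 0.24.

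Of 4 alpha2delta genes 1 passed, Cacna2d4. This subunit is known from photoreceptor synapses (chromosome 4, 151298548 to 151409263, plus strand). It was almost unread in the controls, with 0, 2, 4, 1, 6 and 1 reads, and had 35, 17, 12, 26, 15 and 24 reads after silencing. Every silenced library was above every control. The level rose from -2.83 ± 1.00 to 0.13 ± 0.51 log2 CPM (SD, n = 6), by 2.97 (SE 0.46, adjusted p = 5.35e-04), and its size depended on the processing. It was 3.60 with a prior count of 0.25, 1.86 with a prior count of 5 and 1.59 with quantile normalization, and passed in each (adjusted p = 0.00262, 1.78e-04 and 0.0182). Summed over libraries, the counts were 14 and 129 reads.

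Another gene, Lrtm2, lies within Cacna2d4 on the opposite strand (151375572 to 151390263). It had 1, 14, 8, 7, 10 and 3 reads in the controls and 75, 101, 67, 113, 131 and 123 after silencing, a rise of 3.91 on the log2 scale (SE 0.43, adjusted p = 2.91e-05). The libraries were made with a stranded kit, but the sources used here do not give the strand setting of the counting, so how far reads of this overlap were shared between both genes was not tested. No other of the 42 genes overlapped a listed gene. An expressed gene of the strand of Cacna2d4, Dcp1b, ends 12.8 kb upstream and differed by 0.10.

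Of the remaining alpha2delta genes, Cacna2d1, a target of gabapentin, had the most reads of the family (4552 to 9186 per library). Its log2 level was 8.17 to 8.79 (median 8.47) in anti-control and 8.04 to 8.68 (median 8.39) after silencing, and the groups overlapped almost wholly. It differed by -0.12 (SE 0.14, adjusted p = 0.636, blocked 0.143). Cacna2d2, the other gabapentin-binding subunit, differed by -0.35 and Cacna2d3 by 0.10, and neither passed.

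Among the 6 calcium channel pores, Cacna1c, which encodes an L-type pore of heart, smooth muscle and beta cells, rose by a small but even amount (chromosome 4, 150641066 to 150829913, minus strand). It had 2637, 2287, 2159, 2988, 2454 and 2233 reads in the controls and 3107, 2713, 2704, 3388, 3073 and 3267 after silencing. In log2 CPM, which takes out library size, the highest control (7.14) lay below the lowest silenced library (7.21), and the differences within rats were 0.23 to 0.44. The mean went from 6.96 ± 0.13 to 7.30 ± 0.07 (SD, n = 6), a rise of 0.34 (SE 0.06, adjusted p = 0.00274) or 1.26-fold. The call held in all alternatives. Ankrd26, which starts 24.2 kb beyond the end of Cacna1c on the same strand, rose by 1.23 (adjusted p = 7.56e-05), and Adipor2, the nearest expressed gene upstream at 584.8 kb, differed by -0.10.

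Cacna1d, the other L-type pore of islets and the pore gene with the most reads, did not differ beyond the spread between rats. Its log2 level was 7.27, 7.20, 8.30, 8.17, 8.14 and 8.56 in the controls and 7.70, 7.26, 8.28, 7.79, 8.25 and 8.45 after silencing. Rats 1 and 2 were low in both groups. The difference was 0.01 (SE 0.27, adjusted p = 0.980), and Cacna1a, the P/Q-type pore, differed by -0.04 (SE 0.30). Cacna1b, the N-type pore, was higher in 5 of 6 pairs, by 0.29 on average (SE 0.24, adjusted p = 0.496, blocked 0.0299), a blocked call kept in 3 of 6 fits without a rat.

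The T-type pores, which open near the resting potential, both had negative differences. Cacna1h was 5.61, 5.76, 5.34, 5.39, 5.57 and 5.99 log2 CPM in the controls and 5.22, 5.69, 5.17, 5.19, 5.36 and 5.47 after silencing. It was lower in every rat, by 0.07 to 0.52 within a pair. The mean difference was -0.26 (SE 0.12), and it passed only with the block (adjusted p = 0.187 without, 0.0147 with it, kept in 6 of 6 fits without a rat). Cacna1g differed by -0.26 as well but varied more (SE 0.40, blocked adjusted p = 0.211). Whether pores differ from each other in their response was not tested.

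No beta or gamma subunit of calcium channels passed in either fit. Beta subunits bring the pore to the membrane. Cacnb3, the beta gene with the most reads, was 7.33 to 7.66 log2 CPM (median 7.43) in anti-control and 7.33 to 7.51 (median 7.40) after silencing, and Cacnb2 was 6.05 to 6.34 and 6.07 to 6.33. Their differences were -0.06 and -0.02, with the smallest SE of the 42 genes (0.06 for each). Cacnb1 differed by -0.13 and Cacnb4, at 11 to 68 reads per library, by 0.74 (SE 0.36, adjusted p = 0.203). Cacng7, which also serves as an auxiliary subunit of glutamate receptors, was -1.29 to 1.69 log2 CPM (median 0.65) in anti-control and -0.13 to 1.85 (median 0.68) after silencing, and differed by 0.34 (SE 0.50).

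Sodium channel genes gave no call without the block, and 3 of 9 were lower with it (beside 17.7% of all genes, and 25.7% of genes above 4 log2 CPM in anti-control, where these 3 lie), the beta subunit Scn3b and the pores Scn7a and Scn9a. Scn3b had log2 levels of 6.75, 6.81, 7.61, 7.61, 7.48 and 7.58 in the controls and 6.92, 6.39, 7.22, 7.03, 6.96 and 6.93 after silencing. It was 0.17 higher in rat 1 and lower in the other rats. The difference was -0.40 (SE 0.19, adjusted p = 0.182, blocked 0.0107). The related Scn2b was lower in 6 of 6 pairs (-0.33) without passing (blocked adjusted p = 0.0660).

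Scn9a, a pore expressed in beta cells and pain-sensing neurons, was lower in every pair, by 0.04 to 0.47. Its levels were 4.31 to 5.66 log2 CPM (median 5.08) in anti-control and 4.06 to 5.29 (median 4.85) after silencing, a mean difference of -0.29 (SE 0.28, adjusted p = 0.565, blocked 0.0108). The spread between rats was thus wider than the difference, but the block takes that spread out and gave an SE of 0.07. Scn7a, which encodes a sodium-sensing channel with little voltage dependence, differed by -0.39 (SE 0.33, adjusted p = 0.507, blocked 0.0309), and its blocked call was kept in 1 of 6 fits without a rat.

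Scn3a, the sodium channel gene with the most reads, was level. It was 7.74 to 8.33 log2 CPM (median 8.10) in anti-control and 7.89 to 8.20 (median 8.07) after silencing, and the difference was -0.01 (SE 0.09). Scn2a differed by 0.07 and Scn8a by -0.0022 (SE 0.16 and 0.15), and neither passed. Scn1a had 0 and 1 reads in the controls of rats 1 and 2 and up to 32 in the others, and differed by 0.47 (SE 0.93). Scn1a, Scn2a, Scn3a, Scn7a and Scn9a lie in the same region of chromosome 3, from the start of Scn3a at 51532627 to the end of Scn7a at 52849907. Other genes, such as Ttc21b, lie between them. The differences of the Scn genes there ranged from -0.39 to 0.47.

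**Figure D3:**
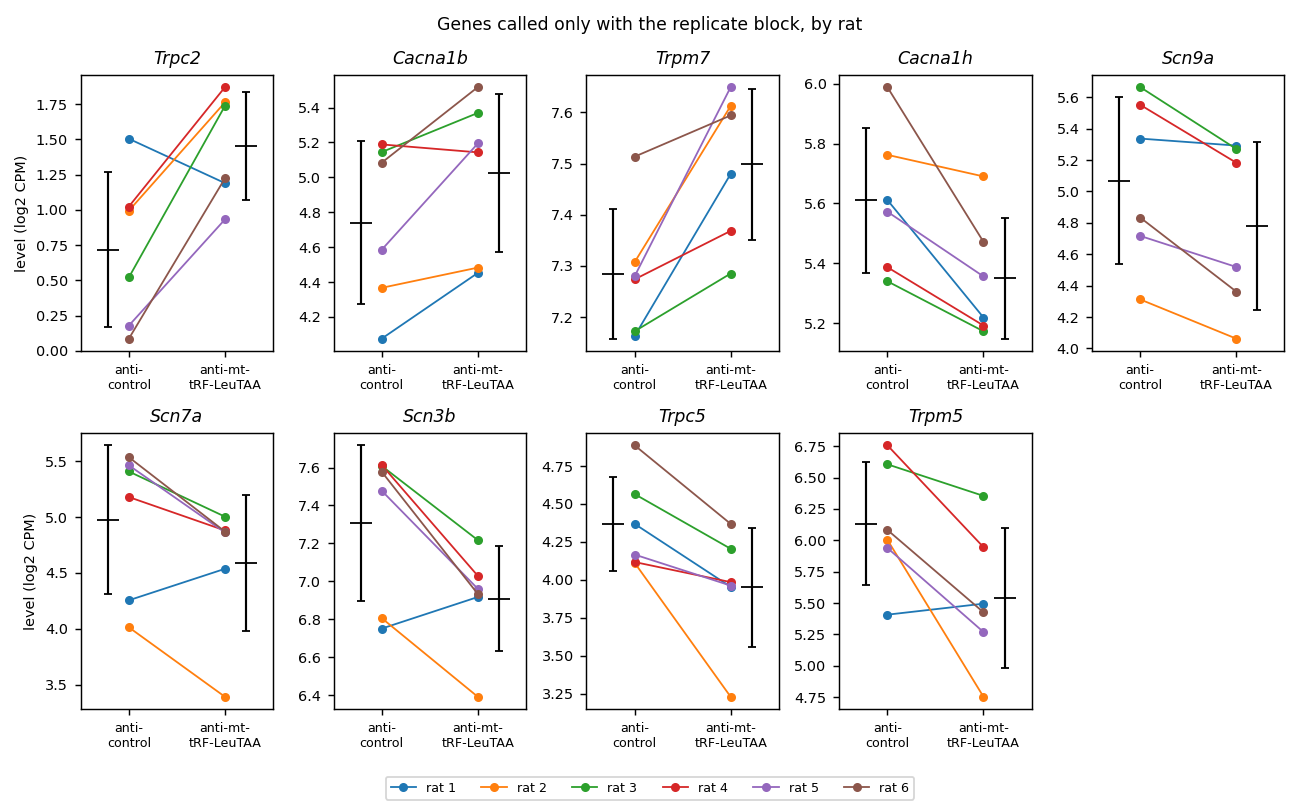
Levels of the 9 genes that passed only with the replicate block (y axis, log2 CPM, a separate scale for each gene; lines join libraries of the same rat; black bars, mean and SD of 6 libraries). Most lines run in parallel while the starting levels differ between rats, and rat 1 runs against the others for Trpc2, Scn7a, Scn3b and Trpm5.

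The balance of the 42 genes differed between rats. In rats 1 to 6, 29, 24, 17, 15, 22 and 16 genes were higher and 13, 18, 25, 27, 20 and 26 lower in the silenced library of the pair. The same counts by rat were not made over all genes, so these have no background and may not be particular to channel genes. Of the 6 genes that passed as lower with the block, which were chosen by these same pairs, 3 were higher in rat 1 and 0 in the other rats. The alpha cell marker sum went from 2100 to 22100 CPM between the libraries of rat 1, from 2050 to 3650 in rat 2, from 31900 to 43100 in rat 3 and from 12800 to 20500 in rat 4, and from 43100 to 30800 in rat 5 and from 42300 to 33800 in rat 6. Of the beta cell markers, Nkx6-1 was lower with the block (-0.47, adjusted p = 0.00214, 6 of 6 pairs), while Mafa (-0.40) and Slc2a2 (-0.38) did not pass (0.305 and 0.188). Endothelial Kdr (0.57, limma adjusted p = 0.00455) and Esam (0.87, 0.0164) also passed only with the block, as higher. Lower in the same way were duct Krt7 (-0.36, 0.00213), stromal Dcn (-0.70, 0.0444) and neuronal Elavl4 (-0.46, 0.0176). The other measured markers of these endothelial, duct, stromal and neuron lists did not pass. The part of these markers in the differences was not tested. Without rat 1, the blocked fit gave 8 higher and 8 lower channel genes (19.0% each), beside 18.4% and 19.3% of all genes, so these shares too were near the background.

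No TRPC gene passed without the block. Trpc2, which carries pheromone signals in rodents, had log2 levels of 1.50, 0.99, 0.52, 1.02, 0.18 and 0.09 in the controls and 1.19, 1.76, 1.74, 1.87, 0.93 and 1.22 after silencing. It was higher in rats 2 to 6. The difference was 0.74 (SE 0.28, adjusted p = 0.0966, blocked 0.0296), and the blocked call was kept in 1 of 6 fits without a rat. Trpc5, a receptor-operated channel of neurons, was lower in every pair, by 0.13 to 0.88, with a mean difference of -0.42 (SE 0.19, adjusted p = 0.172, blocked 0.0112). It kept its blocked call in 6 of 6 such fits.

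Trpc1, the TRPC channel with the most reads, was 4.96 to 5.64 log2 CPM (median 5.16) in anti-control and 5.06 to 5.58 (median 5.38) after silencing, a difference of 0.12 (SE 0.12). The receptor-operated Trpc4 differed by 0.60 (SE 0.42) and the diacylglycerol-gated Trpc6 by 0.27 (SE 0.30), and neither passed. The adaptor Trpc4ap was lower in 6 of 6 pairs, at 7.54 to 7.79 (median 7.69) and 7.44 to 7.73 (median 7.51), but its difference of -0.13 (SE 0.07) missed the threshold with and without the block (adjusted p = 0.0722 and 0.245).

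Trpa1, the receptor for irritants such as mustard oil, varied between rats far more than between groups. Its log2 level was 2.43, 3.16, 3.45, 3.72, 5.23 and 5.79 in anti-control libraries 1 to 6 and 3.32, 1.86, 3.80, 3.03, 5.45 and 6.00 after silencing. Rats 5 and 6 were the highest in both groups. The difference between groups was -0.05 (SE 0.74, adjusted p = 0.974).

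**Figure D4:**
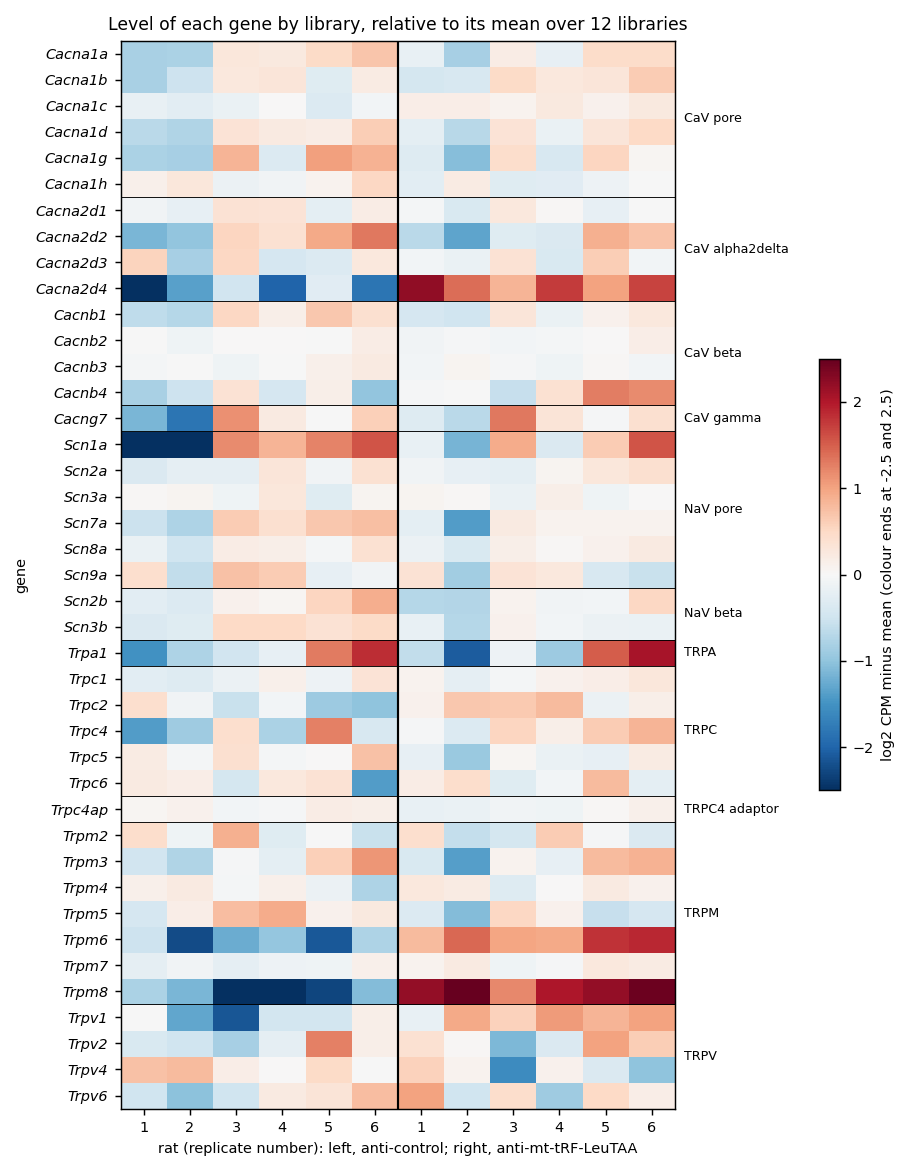
Levels of 41 of the 42 genes (rows, by family) in the 12 libraries (columns), as log2 CPM minus the mean of the gene over all libraries (colour). Trpm8, Trpm6 and Cacna2d4 change between the left and right blocks, while Trpa1, Trpm3, Scn1a and Cacna2d2 repeat a pattern of rats in both blocks.

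For most of these genes the share of variation between rats was larger than that between groups. As a share of the total sum of squares over 12 libraries, differences between rats made up a median of 75.0% for the 42 genes and 62.3% for all genes, and differences between groups a median of 7.88% and 13.7%. For 18 of the 42 genes (42.9%) and 25.0% of all genes the share between rats was above 80%. It was highest for Trpm3 (95.7%), Scn8a (95.1%), Cacna1d (93.2%) and Trpa1 (92.2%). The share between groups exceeded that between rats in 7 genes. In Trpm6, Trpm8, Cacna2d4 and Cacna1c the group took 84.9%, 83.6%, 80.8% and 77.0% and the rats 4.34%, 12.3%, 1.91% and 18.6%. In Trpv1 the shares were 55.3% and 20.4%, in Trpc2 41.8% and 38.8%, and in Cacnb4, which did not pass, 28.7% and 27.1%. These shares describe 12 libraries and were not tested.

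The higher genes were mostly scarce in the controls. Of 13 genes below 1 log2 CPM in anti-control, 4 were higher without the block, as were 31.4% of all genes at that level. Of 9 genes at 1 to 4 log2 CPM, 0 were called in either direction by limma, with or without the block or at an unadjusted p < 0.05 (8.62% of all genes of that range were higher and 1.88% lower). Of 20 genes above 4 log2 CPM, 1 was higher (6.75% of all such genes), and the block gave 3 higher and 6 lower, against 13.9% and 25.7%. All 6 genes of the lower group were thus in the class with the most reads. Across the 42 genes the difference correlated with the control level by -0.51 (Pearson) and -0.50 (Spearman), beside -0.50 and -0.26 over all genes. Both axes share the control libraries. The table also lists detected genes only. A gene scarce in the controls may thus be listed through its silenced libraries, while a gene scarce in both groups may be left out. Below 1 log2 CPM, 0.249% of all genes were lower. How far such a filter sets these shares and correlations was not tested.

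**Figure D5:**
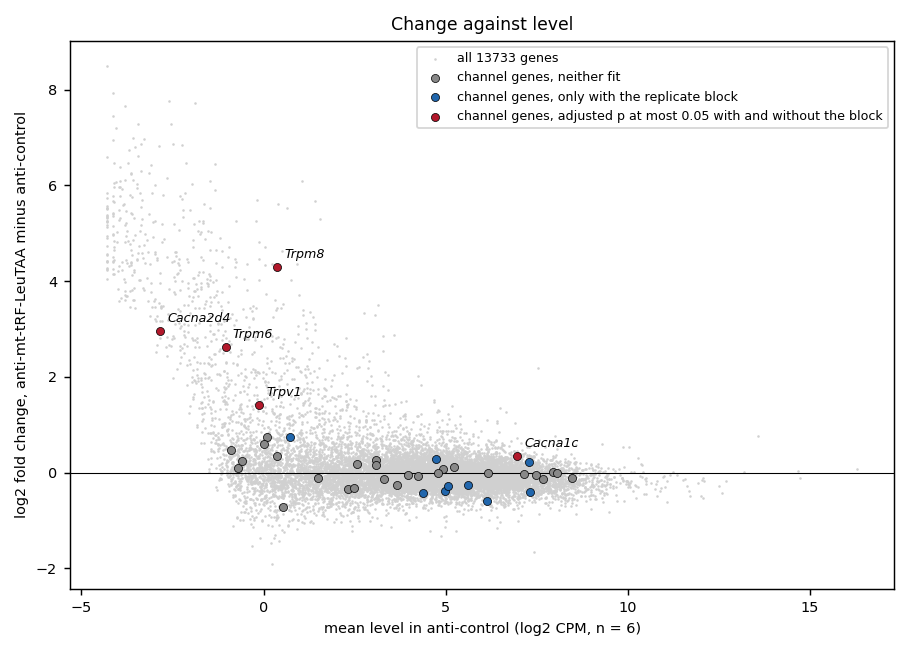
Log2 fold change (y axis) against the mean level in anti-control (x axis, log2 CPM, n = 6) for 41 of the 42 genes (large points) over all 13733 genes (grey). Trpm8, Cacna2d4, Trpm6 and Trpv1 lie at the left, where many genes of the table are also raised, and Cacna1c lies at the right among genes with small differences.

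By position, an expressed gene (at least 3 log2 CPM in anti-control) ended within 50 kb upstream on the same strand for 12 of the 42 genes (28.6%) and for 34.1% of all genes. Among the higher genes it was 2 of 5 (Trpv1 and Cacna2d4), beside 63.9% of the 1494 higher genes of the table. Mroh2a, 50.9 kb upstream of Trpm8, lay just outside this distance. The channel genes were long, with a median span of 77.0 kb against 22.0 kb for all genes, and 19 of them exceeded 100 kb.

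Genes outside these families that act on the same channels or on calcium handling were counted from a list of 78, of which 66 were in the table. Without the block 5 of the 66 were higher and 6 lower, and the median difference over the list was -0.12. Of all genes, 10.9% were higher and 4.65% lower, so the list held a smaller share of higher and a larger share of lower genes. That contrast was not tested. The higher genes were Stac3 (5.03, adjusted p = 1.15e-06), an adaptor of the muscle calcium channel, Catsper4 (3.56, adjusted p = 1.43e-04), a subunit of the sperm calcium channel, Rrad (1.99, adjusted p = 0.0206), a small GTPase that inhibits calcium channels through their beta subunit, Slc8a2 (1.92, adjusted p = 0.00649), a sodium-calcium exchanger, and Fgf11 (0.94, adjusted p = 0.00325), which belongs to the growth factor homologues that bind sodium channels. All 5 were higher in 6 of 6 pairs. Their control levels were low, from -1.71 log2 CPM for Stac3 to 1.31 for Fgf11. An expressed gene of the same strand ended close upstream of each. The distance was 0.1 kb for Catsper4, 1.9 kb for Fgf11, 2.3 kb for Slc8a2, 2.6 kb for Stac3 and 8.2 kb for Rrad. Whether the reads of these 5 genes come from their own starts was not tested.

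Among the lower partner genes, Atp2a3, the calcium pump of the endoplasmic reticulum in beta cells, fell from 10.51 ± 0.13 to 10.05 ± 0.11 log2 CPM (SD, n = 6), by 0.46 (SE 0.09, adjusted p = 0.00327), without overlap between the groups. Stim1, the sensor of store calcium, fell by 0.37 (SE 0.08, adjusted p = 0.00808) and Orai3, a pore that it opens, by 0.41 (SE 0.08, adjusted p = 0.00362), also without overlap. Mcoln1, a lysosomal channel of the TRP superfamily, fell by 0.31 (SE 0.09, adjusted p = 0.0415) and was lower in 5 of 6 pairs. Fgf14, another sodium channel partner, fell by 1.08 (SE 0.29, adjusted p = 0.0247) from a low level of -0.36 log2 CPM. With the block, 6 of the 66 were higher and 18 lower. Of all genes, 17.6% were higher and 17.7% lower, so the shares of the list again lay below and above these. The block thus added 1 gene to the higher ones, Orai2 (0.41), and 12 to the lower ones. These 12 differed by -0.62 to -0.15. Among them, named here after their values were seen, were the calmodulin-dependent kinase gene Camk2b (-0.47, blocked adjusted p = 0.00204), the calcium release channel gene Itpr3 (-0.34, 0.00775) and the calcium pump gene Atp2a2 (-0.29, 0.0141).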

How the data were processed

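Total RNA libraries (stranded kit, per the labels) of 6 anti-control and 6 anti-mt-tRF-LeuTAA samples of dispersed rat islet cells were compared. The authors deposited log2 values per gene, which are log2 CPM with a small prior count, for 13733 detected genes on Rnor_6.0. The tools in the submitters' processing notes are STAR 2.5.3a and cutadapt 1.8, HTSeq 0.9.1, and edgeR 3.30.3 with limma 3.44.3 in R 4.0.3. The sources used here do not say what each did or whether counting used strand. The deposited table also holds group means, fold changes and p-values of the authors' own comparison, and further tables repeat rows of it. These were not used.

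Back-transformation of the log2 values gave whole reads with a deviation of at most 6e-08 reads and a prior count of 1. Because the values were log2, no count model was run. Groups were compared with limma 3.58.1 in R 4.3.3 (12 libraries, intensity trend, no block) over all genes, with Benjamini-Hochberg adjustment and a threshold of 0.05. Fold changes are on the log2 scale with the prior count, which understates changes of scarce genes. Reads are PCR products without molecular identifiers. Between replicates of a group, chi-square over its degrees of freedom was 19.1 to 258, so no library repeated another.

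The replicate numbers pair the libraries: both libraries of a number come from the same rat, and their deviations from the group means correlated by 0.474 to 0.763 across genes (median 0.628). Because of this pairing, a fit with the replicate block was also made, and its values are given where it changed a call. It takes out the spread between rats, which the fit without it leaves in. Over all genes it called 2412 higher and 2431 lower, the same counts as the study reported. SE are from the fit without the block unless stated. Also tried were quantile normalization, scaling by library total, prior counts of 0.25 and 5, no trend, voom weights, a filter at a mean of 0 log2 CPM and leaving out each library or rat. The fit was tested on simulated data. The channel genes, the partner list and the cell type markers were chosen with earlier results of these data known. All channel genes are counted, and the values of 1 channel gene and 1 partner gene are not reported here. Values by library or by range are given for those called without the block, for those called with it at a difference of at least 0.5, and for the gene with the most reads in each family, and partner genes are named where called without the block. Promoter sequences are from RefSeq (GRCr8). Figures were drawn with matplotlib.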

Additional observations from a re-analysis of the deposited data

Results flagged for a closer look

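In 84 groups of 6 libraries (42 genes in 2 groups), a library at the end of its group lay farther from the nearest other than Dixon's critical value allows in 4 cases, where chance flags about 1 in 20 groups. Anti-mt-tRF-LeuTAA library 2 was the lowest of its group for Scn3b (6.39 log2 CPM, next 6.92), Trpc5 (3.23, next 3.95) and Scn7a (3.39, next 4.54). This library had the fewest reads (16.4 M) and the lowest marker sums of its group for alpha (3650 CPM), beta (88700 CPM) and delta cells (151 CPM). Its neuron marker sum was the lowest too (80.4 CPM). Anti-control library 2, of the same rat, was the lowest control for Scn7a (4.01) and Trpc5 (4.11), and for the alpha (2050 CPM) and beta sums (82400 CPM). It was not the lowest for Scn3b (6.81, lowest 6.75) or for the delta (115 CPM, lowest 105) and neuron sums (98.8 CPM, lowest 95.2). Anti-mt-tRF-LeuTAA library 6 was the highest of its group for Cacnb2 (6.33, next 6.17), as the control of the same rat was in its own group (6.34).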

How the results depend on the processing

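Of 1062 alternatives over 41 genes, 925 kept the direction and the side of the threshold. The replicate block gave 8 higher and 6 lower channel genes in place of 5 and 0, and 18 lower partner genes in place of 6. Quantile normalization gave 1 lower channel gene (Trpv4). With a library or a rat left out, 4 to 8 channel genes were higher, 0 to 8 lower, and 4 to 22 partner genes lower, the highest counts in fits with the block. Of the 5 higher genes only Trpv1 lost its call, in 6 fits, and Cacna2d4 has no value under the filter. Without a call in the reported fit, 13 genes passed in 58 alternatives, most often Trpm7 (10). The median of all genes was -0.04, and 0.04 with scaling by library total and -0.07 with quantile normalization.

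Differences changed sign in 16 uncalled genes, and the cause was not tested. With quantile normalization they were Cacna2d1 0.0250, Trpc4 -0.0424, Cacng7 -0.28, Cacnb3 0.0195, Scn1a -0.86, Trpv6 -0.82, Cacnb2 0.0188, Cacna1a 0.0290, Cacna2d3 -1.10 and Scn3a 0.12. With scaling by library total they were Cacnb3 0.0105, Trpm3 0.0058, Cacnb2 0.0517, Cacna1a 0.0310, Trpa1 0.0175, Scn3a 0.0643 and Scn8a 0.0691, and with voom weights Trpa1 0.0143 and Scn8a 0.0096. With a library or rat left out, the ranges were -0.0111 to 0.44 for Trpv2, -0.21 to 0.83 for Scn1a, -0.0179 to 0.51 for Trpv6, -0.25 to 0.20 for Trpm3, -0.33 to 0.12 for Trpm2, -0.0566 to 0.0144 for Cacnb2, -0.21 to 0.12 for Cacna1a, -0.0783 to 0.24 for Cacna2d3, -0.47 to 0.36 for Trpa1, -0.13 to 0.15 for Cacna1d, -0.0693 to 0.0472 for Scn3a and -0.10 to 0.0725 for Scn8a. At 4 to 17 control reads for Trpm6 and 0 to 6 for Cacna2d4, the size of their differences is poorly set. Without the block, the p-values rest on the spread between libraries of different rats within a group. With it, they rest on the spread of the differences within rats. All libraries belong to a single series.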
